A study of Homo sapiens with 8 samples.

Results

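The interferon and NF-κB response genes are a set of 52 human genes that sense or relay foreign nucleic acid or inflammatory signals, or are switched on by them. They were read on 8 Affymetrix arrays of HEK293T cells, of which 5 held plasmid-transfected cells and 3 held cells with a lentiviral shRNA. The members were chosen by gene symbol from the platform annotation, and where a symbol had more than 1 transcript cluster, the brightest on average over the 8 arrays was used. Of the 52 genes, 37 carry a named transcript cluster among the 53617 with values. The other 15 (ADAR, BIRC3, CXCL1, IFI27, IFI6, IFNB1, IL6, MX1, NFKBIA, NFKBIE, OAS1, OAS2, OAS3, STAT2 and TNFAIP3) were not analysed here. The question was whether plasmid or lentivirus delivery raises these genes. No array of untreated cells was among the samples used here, so only differences between the deliveries can be given.

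HEK293T is a human embryonic kidney line that carries adenovirus E1 genes and the SV40 large T antigen. All groups shared this line and its culture medium. The plasmid arrays held cells given the empty vector, a wild-type TET1 (TET1-CD or TET1-FL) or a catalytic mutant (mTET1-CD or mTET1-FL), each on 1 array. CD is the catalytic domain of TET1, an enzyme that oxidises 5-methylcytosine, and FL is the whole protein. These cells were collected by fluorescence sorting 3 days after transfection with FuGene HD. The lentiviral arrays held 1 clone with a control shRNA and 2 clones with shRNAs against TET1, shTET1#1 and shTET1#2. Each shRNA group is therefore made of clones, and delivery cannot be told apart from sorting, cloning or time in culture. All plasmid arrays but the vector also carried TET1, and all lentiviral arrays but the control a TET1 shRNA. Delivery is thus partly mixed with TET1 treatment, and the spread within a delivery includes TET1 differences. In such bulk samples, fewer cells expressing a gene and less RNA per cell cannot be told apart. No label names separate cultures, so p-values measure only the spread between these arrays.

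Foreign RNA in the cytosol is bound by RIG-I (gene RIGI) and MDA5 (IFIH1), and foreign DNA by cGAS, which signals through STING. These relays activate the transcription factors IRF3 and IRF7, which turn on interferon genes. Interferon then acts through its receptor on transcription factors that include STAT2 and IRF9, which bind the interferon-stimulated response element (ISRE) in the promoters of antiviral genes such as the IFIT, OAS and MX families. NF-κB is a family of dimeric transcription factors built from NFKB1, NFKB2, REL, RELA and RELB, which are held back by inhibitors such as NFKBIA and drive genes of cytokines and adhesion molecules. HEK293T cells are widely used as a line with little cGAS and STING of their own.

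Some of the members share short promoter sequences. The genes were chosen by symbol, but a list of interferon and NF-κB response genes is not independent of such sequences. Promoter windows from RefSeq (GRCh38.p14), 250 bases before to 50 after a start, were at hand for 38 of the 52 genes, some with several starts. The ISRE core, GAAA and GAAA with any 2 bases between them, on either strand, was found in 16 of the 38 genes, 15 of them among the 25 interferon-side genes. A κB core, GGG and TTTCC with any 2 bases between them, on either strand, was found in 12, of which 9 were among the 13 NF-κB-side genes. Of all 35116 windows, 3.57% held the first motif and 1.91% the second. These shares are per window, whereas a gene was counted if any of its windows matched. A gene with several starts thus had more chances of a match, and the shares are not like for like. Matches to the motifs can overlap, since the complement of the κB core also holds GAAA. A match is a description of the sequence only. The stretches below are those of the 3 NF-κB subunit genes described in the comparisons and of 4 interferon-side genes, with the match in capitals, 5′ to 3′.
REL, κB match, chr2:60881503-60881562, plus strand: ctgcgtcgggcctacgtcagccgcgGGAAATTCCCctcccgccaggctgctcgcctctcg
NFKB1, κB match, chr4:102501285-102501344, plus strand: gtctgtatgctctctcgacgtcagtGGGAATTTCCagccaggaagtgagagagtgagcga
NFKB2, κB match, chr10:102394475-102394534, plus strand: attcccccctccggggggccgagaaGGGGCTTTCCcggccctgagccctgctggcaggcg
ISG15, ISRE match, chr1:1013359-1013418, plus strand: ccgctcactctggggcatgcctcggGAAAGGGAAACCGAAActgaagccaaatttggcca
IFIT1, ISRE match, chr10:89392482-89392541, plus strand: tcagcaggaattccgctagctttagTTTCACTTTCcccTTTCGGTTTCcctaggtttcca
IFIT5, ISRE match, chr10:89414498-89414557, plus strand: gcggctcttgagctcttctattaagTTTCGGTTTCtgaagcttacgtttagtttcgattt
EIF2AK2, ISRE match, chr2:37156967-37156996, minus strand: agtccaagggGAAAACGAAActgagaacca
ISG15 and IFIT1 each show 2 matches, which overlap in ISG15. The matches of REL, NFKB1 and NFKB2 begin at -46, -49 and -78 from the listed start.

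The values are log2 signals of transcript clusters, deposited after normalization, with array medians between 5.47 and 5.55. No array was a copy of another, and with so few arrays precision is limited throughout. TET1 itself, in cluster 16705381, stood at 9.29 in the control shRNA clone, 8.62 in shTET1#1 and 9.14 in shTET1#2, and in cluster 16715048 at 5.71, 5.27 and 6.20. The sample called shTET1#2 is therefore the array labelled so, with little or no lower TET1 signal. Of the lineage genes of HEK293 cells, 7 of 10 were named, and 6 of these, among them PAX2, LHX1, KRT18 and GATA3, lay above the array median on all arrays. The neurofilament genes NEFL and NEFM and INA were not analysed here. Of the blood and vessel markers, 5 of 10 were named: CD14, LYZ and PECAM1 lay below the median on every array, CD68 above it on every array and CSF1R above it on all but 1. Their summed linear signal was 228 to 286 on the lentiviral arrays and 239 to 351 on the plasmid arrays. The 2 named fibroblast markers, LUM and DCN, lay below the median on every array, with summed signals of 23.3 to 31.9 and 18.7 to 31.9. The part of these markers in the results below was not tested.

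Each array's own median was used to separate members with signal from those near background. On all 8 arrays 17 of the 37 members lay above it, on some arrays 8 did, and on none 12. Over all 14884 named genes, 63.3% lay above the median on all arrays and 24.9% on none. All 5 NF-κB subunits lay above it on all arrays. Of the 4 IFIT genes 3 lay above it on none, as did 4 of the 9 other interferon-induced genes named. The 12 below the median on every array were IFIT1, IFIT2, IFIT3, IFI44, IFI44L, MX2, BST2, IFIH1, CGAS, CXCL10, CXCL8 and CCL2. Of these 12, a promoter window was at hand for 8, and 7 of the 8 held the ISRE core. Of the 17 above the median throughout, 13 had a window, and 4 held the ISRE core and 5 the κB core. Nearest to the line from above was XAF1, a pro-apoptotic interferon target, whose lowest array lay 0.012 above its median. Nearest from below was IFIT1, an effector that binds viral RNA ends, whose highest array lay at -0.26.

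**Figure D1:**
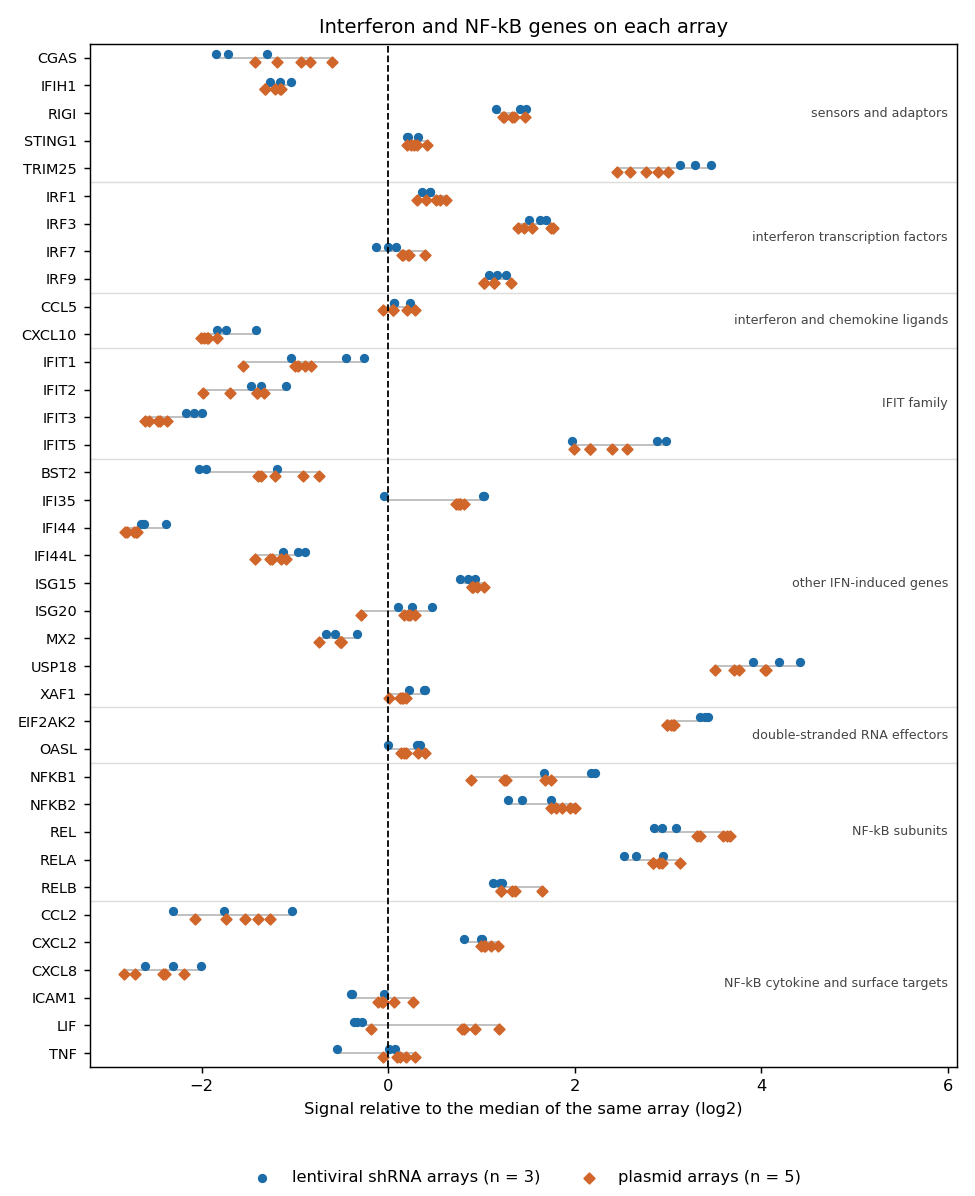
Signal of the 37 named members relative to the median of the same array (log2, x axis), 1 row per gene, grouped by role. Blue circles are the 3 lentiviral arrays and orange diamonds the 5 plasmid arrays; 17 genes lie right of the dashed median line on all 8 arrays and 12 lie left of it on all 8.

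Among the sensors, RIGI stood at 6.87 in the control shRNA clone, 6.95 in shTET1#1, 6.71 in shTET1#2 and 6.84 with the vector. The TET1 plasmid arrays lay between 6.77 and 6.98, so the deliveries overlapped. STING1 stayed between 5.68 and 5.94, within 0.42 above the array medians. CGAS stood at 3.75, 3.63 and 4.25 in the control, shTET1#1 and shTET1#2 clones, and at 4.32 with the vector and 4.09 to 4.91 with the TET1 plasmids. All 8 CGAS values lay at least 0.61 below their array median, where background may set the reading, and IFIH1 stayed between 4.19 and 4.43, also below it. The transcription factors IRF3 and IRF9 had signal on all arrays, at 6.92 to 7.28 and 6.54 to 6.83. IRF1 had the same value, 5.92, in the 3 shRNA clones and with mTET1-CD, and 5.82 to 6.14 on the other arrays.

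The interferon effectors with signal were fewer. ISG15, a ubiquitin-like modifier, lay between 6.24 and 6.54 on the 8 arrays. IFIT5, which binds RNA, lay between 7.51 and 8.45. USP18, the protease that removes ISG15, lay between 9.05 and 9.89, but it has a near-identical pseudogene copy, so its reading is uncertain. Of the low members, IFIT1 lay between 3.96 and 5.21, MX2, a dynamin-like antiviral GTPase, between 4.81 and 5.22, and CXCL10, a chemokine induced by interferon, between 3.52 and 4.06. IFIT3 lay between 3.31 and 3.55 in the clones and between 2.92 and 3.14 on the plasmid arrays, but at least 2.00 below the array medians, where background may set the reading.

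The main comparison set the 5 plasmid arrays against the 3 lentiviral arrays. Of the 25 members that passed a filter on low signal, 2 were called, 1 in each direction. REL, an NF-κB subunit, was 1.49-fold higher on the plasmid arrays. EIF2AK2, which encodes PKR, the kinase that halts translation on double-stranded RNA, was 1.27-fold lower. The filter kept a cluster where at least 2 arrays lay above their own median, and it left 28946 clusters. Over all of these, 4.27% were called, 2.39% higher and 1.88% lower, against 8% of the 25 members, where 1 member is 4% (limma, Benjamini-Hochberg over all kept clusters, threshold 0.05). At an unadjusted p under 0.05 there were 8 members, against 22.8% of all kept clusters. Differences of at least 2-fold between the highest and lowest array were seen in 3 members (LIF, NFKB1 and IFI35), against 22.7% of all kept clusters. So few called members do not set the list apart from all clusters. The median difference was 0.071 over the 25 members and 0.014 over all kept clusters. Of the 25 members, 16 had a difference above 0. On the interferon side 8 of 16 members had a difference above 0, with a median of -3e-04. On the NF-κB side 8 of 9 did, with a median of 0.31. LIF and ICAM1, on that side, passed the filter only through plasmid arrays, which favoured a difference above 0. IRF7, on the interferon side, lay above the median on only 1 lentiviral array, shTET1#2, so it needed plasmid arrays to pass. LIF, ICAM1 and IRF7 all count among the 8 members at an unadjusted limma p under 0.05. The counts that hold them are therefore given with no weight. Over all kept clusters 52.2% had a difference above 0.

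REL stood at 8.40 in the control shRNA clone, 8.56 in shTET1#1, 8.40 in shTET1#2, 9.10 with the vector, 9.18 with TET1-CD, 9.14 with mTET1-CD, 8.83 with TET1-FL and 8.90 with mTET1-FL. All plasmid arrays lay above all lentiviral arrays, and the vector array was among the high ones. The means were 9.03 ± 0.15 (SD, n = 5) and 8.45 ± 0.093 (SD, n = 3), a difference of 0.57 ± 0.11 (SE, limma adjusted p = 0.0317). The adjusted p was 0.0606 to 0.0985 when any 1 array other than the vector or TET1-FL was left out, and the difference then stayed between 0.54 and 0.63. With no filter on low signal it was 0.0544.

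EIF2AK2 stood at 8.90 in the control shRNA clone, 8.87 in shTET1#1, 8.90 in shTET1#2, 8.54 with the vector, 8.58 with TET1-CD, 8.57 with mTET1-CD, 8.51 with TET1-FL and 8.54 with mTET1-FL. The deliveries formed 2 tight groups that did not overlap, at 8.89 ± 0.013 (SD, n = 3) and 8.55 ± 0.027 (SD, n = 5). The difference was -0.34 ± 0.078 (SE, limma adjusted p = 0.0463). Leaving out any 1 array other than the vector gave an adjusted p of 0.0776 to 0.124, with a difference of -0.35 to -0.33. With no filter on low signal it was 0.08, and in a fit with terms for each TET1 treatment it was 0.089.

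LIF, a cytokine of the IL6 family, stood at 5.14 in the control shRNA clone, 5.19 in shTET1#1, 5.18 in shTET1#2 and 5.34 with the vector, then at 6.32 with TET1-CD, 6.44 with mTET1-CD, 6.71 with TET1-FL and 6.34 with mTET1-FL. Only the 4 TET1 plasmid arrays lay above their array median, and the vector stood next to the clones. The difference between deliveries was 1.06 ± 0.27 (SE, limma adjusted p = 0.0582). For the vector alone against the 3 clones it was 0.17, with an adjusted p of 0.746. With the vector left out it was 1.28. LIF passed the filter only through the 4 arrays where it is high, so it had to differ among the arrays, and its p-values are given with no weight. With no filter the adjusted p was 0.0940, with 1 cluster per named gene 0.0305, and in the fit with terms for each TET1 treatment 0.0274. LIF is not tested where every array must lie above its median. Because the low values lie below the array median, the difference may be understated.

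NFKB1, which encodes a precursor that also restrains NF-κB, stood at 7.64 in the control shRNA clone, 7.69 in shTET1#1, 7.23 in shTET1#2, 6.40 with the vector, 7.26 with TET1-CD, 7.19 with mTET1-CD, 6.78 with TET1-FL and 6.80 with mTET1-FL. The vector array was the lowest, and TET1-CD overlapped with shTET1#2. The difference between deliveries was -0.63 ± 0.21 (SE, limma adjusted p = 0.113). For the vector alone against the clones it was -1.12, with an adjusted p of 0.366. Of the subunit genes whose κB matches are printed above, REL and NFKB2 thus stood above 0 and NFKB1 below it, and only REL passed.

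NFKB2, the subunit of the non-canonical pathway, and TRIM25 were picked after their values were seen, since their deliveries did not overlap. NFKB2 stood at 6.90, 7.22 and 6.84 in the control, shTET1#1 and shTET1#2 clones, 7.47 with the vector, 7.26 with TET1-CD, 7.31 with mTET1-CD, 7.39 with TET1-FL and 7.55 with mTET1-FL (difference 0.41 ± 0.12 SE, limma adjusted p = 0.0839). TRIM25, the ubiquitin ligase that acts on RIG-I, stood at 8.92, 8.77 and 8.68 in the clones, 8.28 with the vector, and 8.51, 8.40, 8.11 and 8.00 with the same plasmids (-0.53 ± 0.13 SE, limma adjusted p = 0.0605). Neither passed the threshold. TRIM25 had an adjusted p of 0.0476 where only clusters above the median on all arrays were kept, of 0.0338 with 1 cluster per named gene and of 0.0451 in the fit with terms for each TET1 treatment.

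Altogether the plasmid arrays lay wholly above the lentiviral arrays for 4 of the 25 members (IRF7, LIF, NFKB2 and REL; 8.18% of all kept clusters) and wholly below for 2 (EIF2AK2 and TRIM25; 7.67%). Without regard to direction that is 6 members, against 15.9%. LIF, held in both counts, passed the filter only through the TET1 plasmid arrays, so it has no weight in them. IRF7, the inducible partner of IRF3, lay between 5.34 and 5.63 in the clones and between 5.66 and 5.91 on the plasmid arrays, close to the array medians (0.27 ± 0.10 SE, limma adjusted p = 0.158). Of the clones only shTET1#2 lay above its median, so IRF7 needed plasmid arrays to pass the filter. It has no weight in these counts either, and its p-value is given with no weight. The subunit genes RELA and RELB stood at 0.24 ± 0.11 and 0.20 ± 0.12 (SE), and neither passed (limma adjusted p = 0.245 and 0.362). The adhesion molecule gene ICAM1, at 0.32 ± 0.13 (SE), did not pass either (limma adjusted p = 0.192). ICAM1 lay above its array median only with TET1-CD and TET1-FL. It thus passed the filter through plasmid arrays alone, and its p-value is given with no weight. TNF stood at 0.31, in 1 of 8 transcript clusters that mostly hold the same values. Among interferon effectors, IFIT5 stood at -0.33, USP18 at -0.33, ISG15 at 0.11 and OASL at 0.055, and RIGI at 0.0021, all with adjusted p of 0.226 or more.

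**Figure D2:**
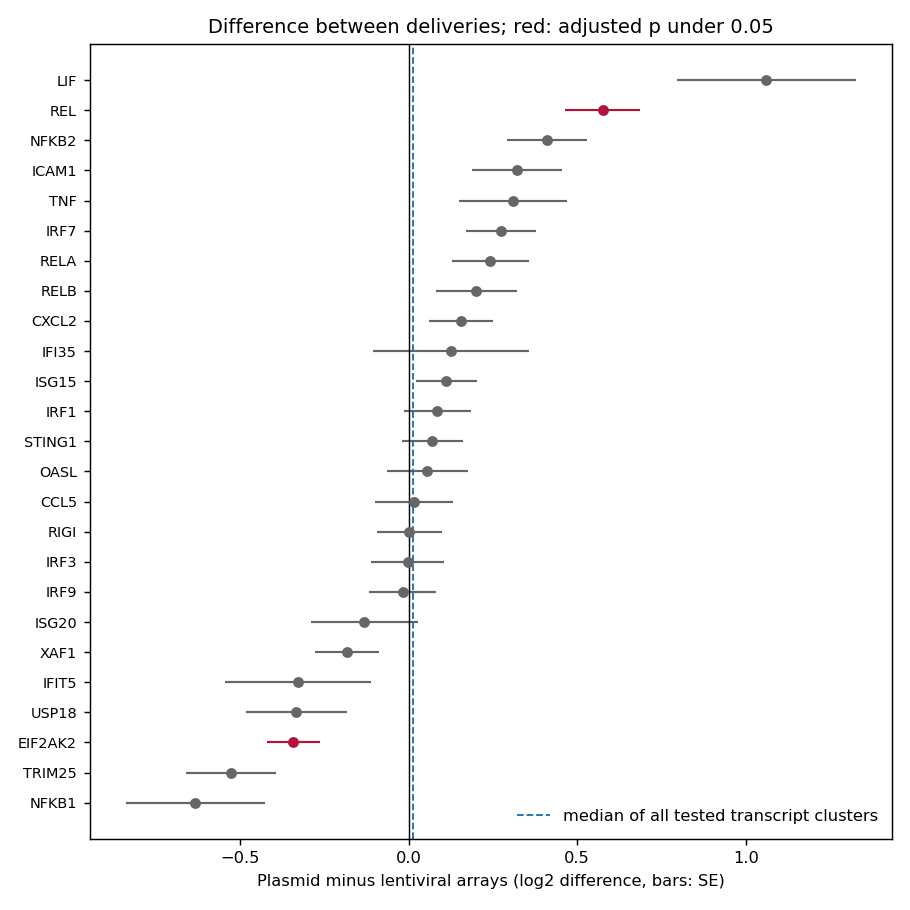
Plasmid minus lentiviral difference (log2, x axis) with its SE for the 25 members that passed the filter, ordered by size. REL at 0.57 and EIF2AK2 at -0.34 are red as the 2 past the threshold, and the dashed line marks the median of all kept clusters at 0.014.

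**Figure D3:**
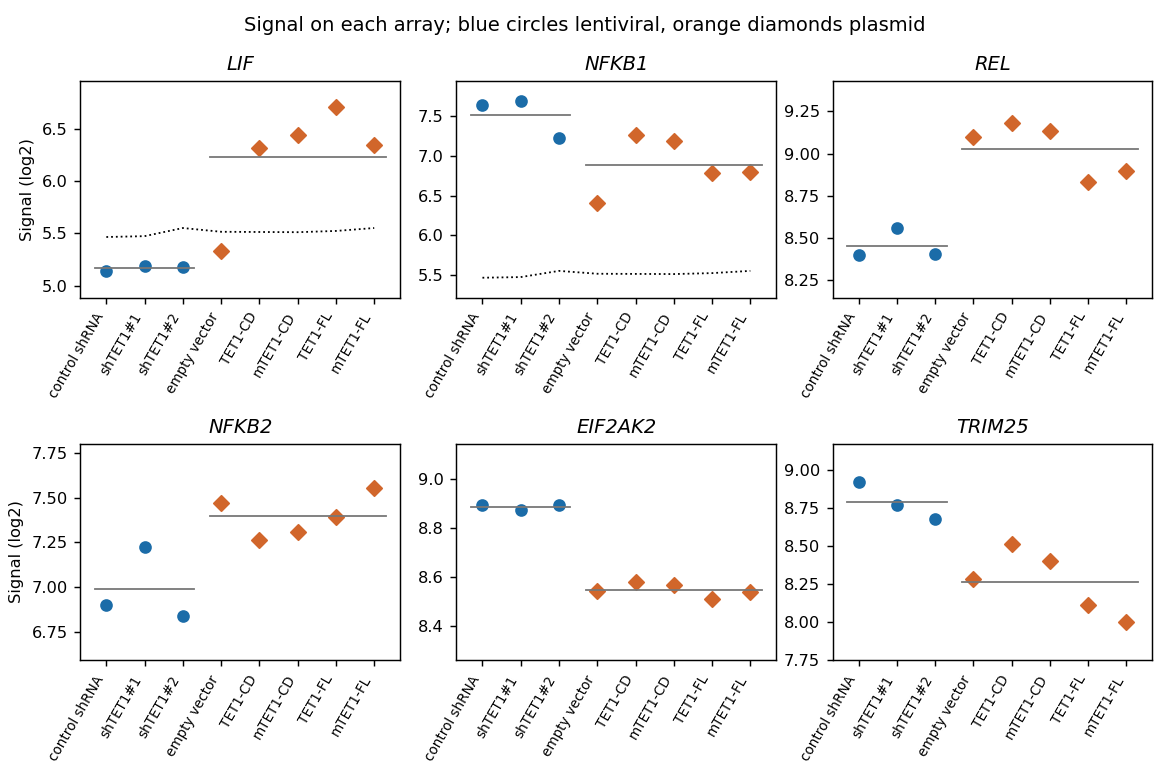
Signal (log2, y axis, ranges differ between panels and do not start at 0) of 6 members on each of the 8 arrays. Blue circles are lentiviral and orange diamonds plasmid arrays, grey lines are their means, and the dotted line, where in range, is the array median; LIF is high with the 4 TET1 plasmids and not with the vector at 5.34, and EIF2AK2 forms 2 separate groups.

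The control arrays of the 2 deliveries, the empty vector and the control shRNA, carry neither a TET1 plasmid nor a TET1 shRNA. With 1 array on each side there is no replicate check. Of the 25 members 1, NFKB1, was at least 2-fold apart, at -1.24 for vector minus control, against 4.54% of all kept clusters. REL stood at 0.70 and NFKB2 at 0.57. Of the members below the median on every array, CCL2, a chemokine gene, stood at 0.96, CGAS at 0.57 and BST2, which tethers virus particles, at 0.50, where background may set the reading. IFIT5 stood at -0.84, TRIM25 at -0.64, ISG20, an exonuclease, at -0.50, EIF2AK2 at -0.35 and LIF at 0.20.

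The TET1 plasmids were then set against the vector, in a fit of all 8 arrays with terms for each treatment. This comparison shares the vector array with those above. No member passed (limma, 0 of 25, and 0% of all kept clusters), and 2 members had an unadjusted p under 0.05, against 15% of all kept clusters. These were LIF and NFKB1, the members marking the set. LIF stood 0.99 above the vector with TET1-CD, 1.11 with mTET1-CD, 1.37 with TET1-FL and 1.01 with mTET1-FL, so wild-type and mutant plasmids lay in the same range. It was the only one of the 25 members at least 2-fold from the vector on any of these arrays, on all but TET1-CD. Of all kept clusters, 3.68% were 2-fold apart with TET1-CD, 3.14% with mTET1-CD, 3.6% with TET1-FL and 3.03% with mTET1-FL. The fitted difference was 1.12 ± 0.18 (SE), which is 2.17-fold (limma adjusted p = 0.176). The same limit holds here, since the TET1 plasmid arrays alone brought LIF through the filter. NFKB1 stood 0.86 above the vector with TET1-CD, 0.79 with mTET1-CD, 0.38 with TET1-FL and 0.39 with mTET1-FL (0.61 ± 0.21 SE, limma adjusted p = 0.304). REL and NFKB2 stood at -0.089 for their fitted difference, and EIF2AK2 at 0.0043. All 4 plasmids lay above the vector for 8 members and below it for 2, against 27.2% of all kept clusters in each direction. A fitted difference above 0 was found for 19 members, against 50.2% of all, with a median of 0.069 over the 25. LIF and ICAM1, which passed the filter only through TET1 plasmid arrays, are among the 19, and LIF is also among the 8. The counts that hold them are given with no weight.

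**Figure D4:**
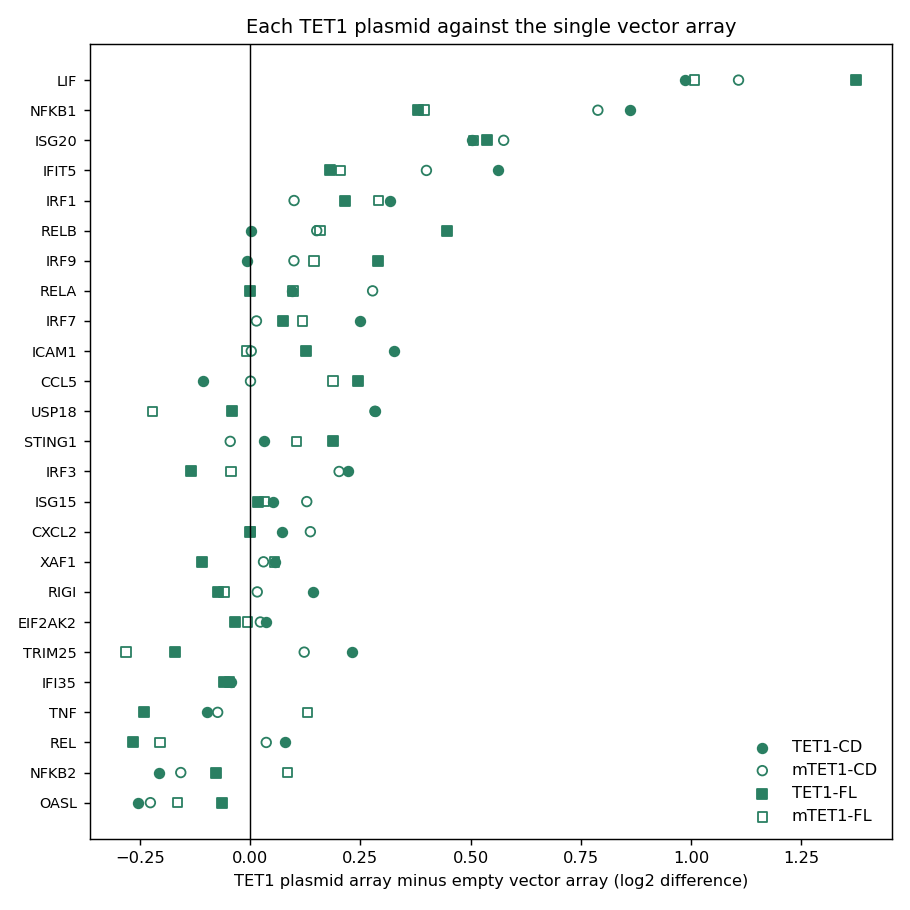
Each TET1 plasmid array minus the empty vector array (log2 difference, x axis) for the 25 members that passed the filter. Circles are CD, squares FL, filled wild-type and open mutant; the 4 points of LIF lie between 0.99 and 1.37, to the right of the other members.

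The wild-type and mutant plasmids differ in whether the TET1 they supply is active. No member passed (limma, 0 of 25, and 0% of all kept clusters), and 0 had an unadjusted p under 0.05, against 1.96% of all. A difference above 0 was found for 13 members, against 50.9% of all, and the median was 0.020. ICAM1, which passed the filter only through TET1-CD and TET1-FL, is among the 13. LIF stood at -0.12 with CD and 0.37 with FL, and NFKB1 at 0.072 and -0.014. No member was 2-fold apart in either construct, against 0.563% of all kept clusters with CD and 0.736% with FL.

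FL minus CD gave no called member either (limma, 0 of 25, and 0% of all), with 1 at an unadjusted p under 0.05, against 13.7% of all. That member was TRIM25, at -0.40 ± 0.12 (SE, limma adjusted p = 0.27). NFKB1 stood at -0.44, USP18 at -0.41 and REL at -0.29 in the same comparison, and 9 of the 25 had a difference above 0, against 50.7% of all kept clusters.

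TET1 shRNA minus control shRNA called no member (limma, 0 of 25, and 0% of all kept clusters), and 0 had an unadjusted p under 0.05, against 7.93% of all. IFI35, an interferon-induced leucine zipper protein, had the widest gap. Its values were 6.49 with the control shRNA, 5.42 for shTET1#1 and 6.57 for shTET1#2, then 6.32 with the vector, 6.28 with TET1-CD, 6.28 with mTET1-CD, 6.27 with TET1-FL and 6.28 with mTET1-FL. The low value was on 1 array, shTET1#1, where IFI35 alone of the 25 members was at least 2-fold from the control, against 1.99% of all kept clusters. For shTET1#2 no member was, against 3.28%. A fitted difference above 0 was found for 12 members, against 47.7% of all. Its fitted difference of -0.49 did not pass (limma adjusted p = 0.858). Without shTET1#1 its difference between deliveries turned from 0.13 to -0.24, and neither passed.

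Genes around the members were read from lists of the same pathways. Of the interferon receptors and JAK-STAT genes 8 of 15 were named and kept, and none was called between deliveries in limma; IFNGR2, a chain of the interferon-gamma receptor, stood at -0.25 and the feedback inhibitor gene SOCS1 at 0.24. Of the nucleic acid sensing relay 14 of 19 were named and 10 kept, with none called. SAMHD1, which breaks down nucleotides, stood at -0.82 ± 0.215 (SE, limma adjusted p = 0.0652) and the adaptor gene TICAM1 at -0.37. Of the NF-κB signalling relay 11 of 20 were named and kept, with none called; CYLD, a deubiquitinase that damps NF-κB, stood at 0.55 and BCL3, an atypical IκB, at 0.38. Of the LIF and IL6 receptor genes 5 of 9 were named and 3 kept, with none called; the cytokine gene CTF1 stood at 0.27 and LIFR at 0.17.

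Of 40 further interferon-induced genes, 21 were named and 13 kept, and 1 was called, against 2.39% of all kept clusters called higher. A single call in so short a list does not set it apart. IFITM1, which blocks virus entry, was higher on the plasmid arrays. It stood at 7.68, 6.95 and 7.20 in the control, shTET1#1 and shTET1#2 clones, 8.69 with the vector, 8.30 with TET1-CD, 8.04 with mTET1-CD, 8.38 with TET1-FL and 8.64 with mTET1-FL. The vector was the highest array, and the deliveries did not overlap (1.13 ± 0.20 SE, limma adjusted p = 0.0237). Without shTET1#1, shTET1#2, TET1-FL or mTET1-FL the adjusted p was 0.0560 to 0.0740. The list's median was 0.28, and 8 of the 21, among them RSAD2, DDX60 and SAMD9, lay below the median on every array. Of 23 further NF-κB targets 13 were named and 8 kept, and 1 was called, against 1.88% of all kept clusters called lower: BCL2L1, which encodes the survival protein BCL-xL, was lower on the plasmid arrays, at -0.46 ± 0.099 (SE, limma adjusted p = 0.0413). It lost the call when any 1 array other than the vector was left out (0.0626 to 0.109), with no filter on low signal (0.0703) and in the fit with terms for each TET1 treatment (0.0553). None of the genes in these lists was called in the other comparisons, where limma called no cluster at all.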

How the data were processed

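The deposited table holds log2 expression values per transcript cluster. Per the submitters' processing notes it was made with RMA, a background correction and between-array normalization, and with Affymetrix Expression Console 1.3.1. The build is not given in the sources used here. Per the labels' protocols, 100 ng of total RNA was amplified for each array. Of 53981 rows 364 held no value. Names came from the platform annotation: 16098 clusters had 1 symbol, none several, and the rest were tested unnamed. Symbols were updated by gene number through RefSeq (GRCh38.p14), which also gave the promoters. No coordinates of the clusters are printed.

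Delivery was fitted in limma 3.58.1 under R 4.3.3 (lmFit, eBayes) as 2 group means with 6 residual degrees of freedom. The other comparisons came from a fit with terms for control shRNA, TET1 shRNA, vector, wild-type, mutant and construct (0.5 for FL, -0.5 for CD), with 2 residual degrees of freedom. Its spread comes from the gap between the shTET1 clones and from how far wild-type minus mutant differed by construct. Adjusted p-values are Benjamini-Hochberg values over the 28946 kept clusters. The fits were run on simulated data with changes of 2-fold or more, larger than those of REL and EIF2AK2. Only the delivery fit had a pass mark for recovery, set at the largest change. The run therefore gives no check on changes as small as those of REL and EIF2AK2. Members and lists were chosen with earlier results of these data known. Values on all arrays are given for LIF, NFKB1, called members and members with a 2-fold range whose highest array lies above the median. Of a further list, called genes are named, otherwise the 2 with the largest difference between deliveries. Other genes named with values were chosen after their values were seen. Alternatives changed scaling, filter, clusters per gene, prior, design and arrays.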

Additional observations from a re-analysis of the deposited data

Results flagged for a closer look

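On the 5 plasmid arrays, 3 of 25 members had 1 array standing apart from the others, and in each it was the empty vector. For LIF the vector, at 5.34, lay below the 4 TET1 plasmids at 6.32 to 6.71, and the gap made up 0.717 of the range. For ISG20 the vector stood at 5.22 and the others at 5.72 to 5.79, a gap of 0.874 of the range, whereas the 3 lentiviral arrays lay between 5.58 and 6.02. For IFI35 the gap was 0.743 of a range in which the vector stood at 6.32 and the others at 6.27 to 6.28. Chance alone gives such a gap in about 1 of 20 groups. Over all 28946 kept clusters 10.1% had such a gap, and the vector was the array apart in 50.8% of these, so the pattern is not particular to the members. The vector is a single array, and the cause was not tested.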

How the results depend on the processing

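The delivery comparison called 2 members of 25 and 1235 clusters in all. With no filter on low signal it called 0 and 541. With 1 cluster per named gene it called 4 members (REL, EIF2AK2, LIF and TRIM25) and 961 clusters. At most 11560 named clusters were tested there, in place of 28946. LIF has no weight in that count, since it passed the filter only through the arrays where it is high. Leaving out 1 array at a time gave 0 to 3 members and 195 to 2333 clusters, the highest counts without the vector and the lowest of clusters without the control shRNA clone. LIF passed the threshold in 1 of these fits and has no weight in its count either. The difference of IFI35, 0.13, ranged from -0.24 (without shTET1#1) to 0.33 with 1 array left out. The cause of these shifts was not tested. Members above the 75th percentile of every array numbered 6, against 17 above the median. Over 18 alternative settings, 154 of 194 tested values kept their direction and their side of the threshold, and 107 of 128 counts and medians stayed near the main value. The other comparisons called 0 members in every alternative that could be fitted. Leaving out the control shRNA or the vector removes a comparison's only reference array. Scaling moved the median of all kept clusters between deliveries by less than 0.1. No pairing by replicate number was possible, because the groups compared share fewer than 2 replicate numbers. Wild-type and mutant arrays were matched by construct, through the construct term of the fit.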

Other observations

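DTX3L, a ubiquitin ligase of the interferon response, IFITM2, CYLD and SOCS1 were picked here after their values were seen. DTX3L stood at 6.21 in the control shRNA clone, 4.69 in shTET1#1 and 5.40 in shTET1#2, and at 6.21 with the vector and 6.02 to 6.46 with the TET1 plasmids. Both TET1 shRNA clones thus lay below all other arrays, but the fitted difference from the control clone, -1.16 ± 0.32 (SE), did not pass (limma adjusted p = 0.548). IFITM2, a close copy of IFITM3 whose reading is therefore uncertain, also lay lowest in both TET1 shRNA clones. It stood at 6.75 in shTET1#1 and 6.41 in shTET1#2, against 7.20 to 7.88 on the other arrays. Its fitted difference of -1.30 ± 0.22 (SE) did not pass either. The lower clone was shTET1#1 for DTX3L but shTET1#2 for IFITM2. The share of all kept clusters with both clones lowest was not counted. CYLD stood at 7.11 with the vector and between 7.86 and 8.02 with the 4 TET1 plasmids, against 7.03 to 7.41 in the clones. The TET1 plasmids stood 0.82 ± 0.15 (SE) above the vector, which did not pass (limma adjusted p = 0.188), and wild-type minus mutant was 0.14. Like LIF, CYLD was high on the same 4 arrays with wild-type and mutant TET1 alike, and the vector lay with the clones. SOCS1, a feedback inhibitor of cytokine receptors, differed from this. Its vector array was the lowest, at 5.31, below the clones at 5.69 to 5.83. The TET1 plasmids ran from 5.86 with TET1-CD to 6.46 with mTET1-FL, 0.88 ± 0.14 (SE) above the vector (limma adjusted p = 0.176), so part of that difference lies in the low vector array.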
